A study of Oryza sativa with 12 samples.

Results

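Rice (Oryza sativa) suspension cells were kept for 12 h in Murashige and Skoog medium that held neither sucrose nor sorbitol, and their messenger RNA was set against that of cells kept for 12 h in sucrose-free medium with 88 mM sorbitol. This comparison is made up of 3 of the 12 arrays of the study, chosen by their titles. Both cell populations on each array therefore lacked sucrose and differed in sorbitol, which the design text names as a control for osmotic stress. The other 9 arrays set cells starved of sucrose for 12, 24 or 48 h against cells in 3% sucrose, with 3 arrays each. The labels give no variety, cell line or genotype. Each of the 3 was an Agilent rice array with RNA of the cells without sorbitol in Cy5 and that of the sorbitol cells in Cy3.

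Sorbitol is a sugar alcohol that lowers the water potential of a medium, and it is widely used as an osmotic stand-in for sucrose because many plant cells use it poorly as food. Plant cells that lose water commonly make abscisic acid, which binds receptors that hold back PP2C phosphatases, and so frees SnRK2 kinases to switch on genes through bZIP factors of the ABF type. Among the known targets are dehydrins and other late embryogenesis abundant proteins, which protect cell contents as water is lost, and PP2C genes themselves, which damp the signal.

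Values are given as log2 of cells without sorbitol over cells in sorbitol, so a positive value means more signal from cells without sorbitol. The files leave the order of the channels in the ratio unsaid, and the direction was taken from the dye labels alone. If the ratios ran the other way, every sign given here would turn. No array had its dyes swapped, so dye bias of a probe stays in its mean ratio and cannot be told apart from a change. Array ratios hold no expression level, so the presence of suspension-cell markers could not be checked. In RNA from a whole culture, fewer cells of a type and less RNA per cell cannot be told apart. The values were read as natural logs, which is not settled for these columns: EM, the highest named gene, would stand at 1.66 in place of 2.40 if they were log2 and at 5.52 if they were log10, with the same p-values. The labels do not say whether the 3 arrays came from separate cultures. The p-values measure only the spread between these arrays, which may be technical, and the number of arrays limits the precision.

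The 3 arrays resembled each other. Across probes, which are not independent replicates, their log2 ratios gave correlations of 0.694 to 0.790 over the 3 pairs of arrays. Over all probes, ratios had an SD of 0.298, 0.344 and 0.381 on arrays 1 to 3, and 62.5% of probes had the same sign on all 3. The median SD of a probe over the 3 arrays was 0.13, against 0.44 over the 3 arrays of 12 h against sucrose. Between 17% and 24.5% of the values on each array repeated a value of another probe exactly.

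Of 21470 probes with a value on all 3 arrays, 7630 passed an adjusted p of 0.05 in the test of the mean ratio against 0 (35.5%). Of these, 3814 were higher in cells without sorbitol (17.8%) and 3816 were lower (17.8%). Most of these ratios were small: the median size of a called ratio was 0.38, and the smallest was 0.23. Only 1232 probes were called and at least 1.5-fold from 1 (5.74%), 631 of them higher (2.94%) and 601 lower (2.80%). At least 2-fold were 108 called probes higher (0.503%) and 61 lower (0.284%), with a largest rise of 7.14-fold and a largest fall of 3.63-fold.

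The count rested on fitting these arrays alone, a choice made because they varied less than the other arrays. That choice thus used the spread of the same data. When the 12 arrays of the study shared 1 estimate of the spread, 9 probes were called, all higher, and without replicate 2 the count was 4588. Among the 1232 called probes of at least 1.5-fold, 1228 kept their call in each of the 3 fits that left out 1 array (99.7%). Of all called probes 50.6% did. The 1.5-fold cut was made on the same arrays, so the higher share follows in part from the cut. The rule for named genes took 93 called probes, of which 84 kept the call in all 3 fits without 1 array and 3 under the shared spread. The 9 probes called under the shared spread included the jasmonate repressor gene JAZ13 and the early nodulin-like gene ELA3 (also named ENODL18). The other 7 belonged to genes without a name, led by LOC4333949.

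**Figure D1:**
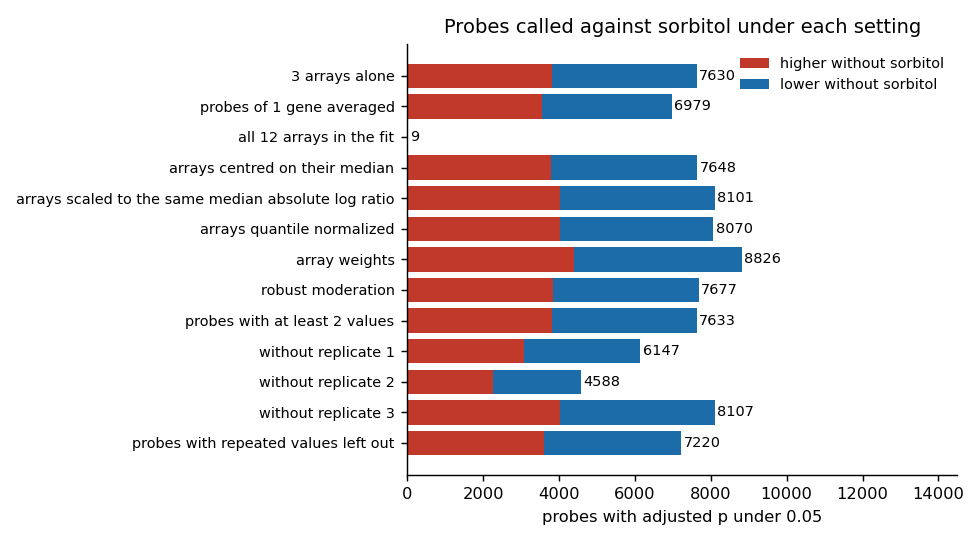
Number of probes with an adjusted p under 0.05 (x axis) under each setting of the fit (rows), split into probes higher (red) and lower (blue) in cells without sorbitol. The 3 arrays alone gave 7630 calls, whereas the fit over 12 arrays gave 9.

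Genes known from water loss and abscisic acid were among the largest rises. EM (LOC4338499), which encodes a late embryogenesis abundant protein of seeds, had log2 ratios of 2.51, 2.45 and 2.24 on arrays 1 to 3. It was thus 5.26-fold higher in cells without sorbitol (mean 2.40 ± 0.14, SD, n = 3, adjusted p = 1.19e-07), and it stood highest of all called probes with a gene name. The dehydrin gene RAB16B (LOC4350453) had ratios of 1.24, 1.30 and 0.81, a 2.17-fold rise (1.12 ± 0.26, adjusted p = 4.19e-05). All 3 arrays were on the same side for both genes, with array 3 the lowest. By the dye labels, both were thus higher in the cells that lacked the osmotic agent.

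All gene lists were chosen with earlier results of these data known, so the shares of their members are descriptions and not tests. Of 6 probes tested for dehydrins and late embryogenesis abundant proteins, 5 rose (83.3%, against 17.8% of all probes) and none fell, and their median was 0.59, against 0.00 over all probes. The dehydrin genes rab25 and RAB16C rose by less, with means of 0.59 ± 0.04 and 0.51 ± 0.09 (SD, n = 3), and Dhn1 had a mean of 0.58. RAB16D, which lies in the same gene family, had ratios of -0.05, -0.10 and 0.21 and was not called (adjusted p = 0.863). Members of the RAB16 family are close in sequence, and probes for them may share signal, which was not tested.

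Of 22 abscisic acid probes, 10 rose (45.5%, against 17.8% of all probes) and 4 fell (18.2%), with a median of 0.18. The 2 highest were PP2C phosphatase genes, for negative regulators of the hormone's signal, and 4 of 5 PP2C probes rose (80%). As the list was chosen with earlier results of these data known and family counts were added later, these shares only describe the members. OsPP2C59 (LOC4341949) had ratios of 1.30, 1.73 and 1.89 and PP2C30 (LOC4332374) of 1.17, 1.73 and 1.84. Both were lowest on array 1 and close to 3-fold higher in cells without sorbitol, with means of 1.64 ± 0.30 and 1.58 ± 0.36 (adjusted p = 7.02e-06 and 1.41e-05, n = 3). OsPP2C08 and OsPP2C09 also rose, with means of 0.94 and 0.51, while PP2C51 averaged 0.06 and was not called.

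Further along the pathway, the bZIP factor gene ABF2 (also named BZIP23, LOC4330838) gave ratios of 0.88, 1.00 and 0.96, a 1.93-fold rise (adjusted p = 3.27e-05). ABA8OX1 (LOC9269675), whose enzyme breaks abscisic acid down, gave 0.86, 0.97 and 1.10 (mean 0.98 ± 0.12, n = 3, adjusted p = 3.31e-05). The SAPK genes, which encode the SnRK2 kinases, went both ways: 4 of 12 probes rose and 4 fell (33.3% each, against 17.8% of all probes). They ran from SAPK4 at 0.69 to SAPK8 at -0.56. Neither the seed factor gene VP1, with a mean of -0.04, nor the bZIP gene TRAB1, with 0.05, was called.

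The other genes among the 12 highest belonged to no single list. PM1 (also named OsPM19L1, LOC4338635), for an AWPM-19-like membrane protein, had ratios of 1.63, 1.91 and 1.62, a 3.29-fold rise. HOX24 (LOC4330155), a homeodomain-leucine zipper factor, had 1.37, 1.52 and 1.71, a 2.89-fold rise. LTP-2 (LOC4331362), a lipid transfer protein gene, had 1.75, 1.82 and 1.58, also 3.29-fold higher. All 3 genes lay well above 0 on every array, with adjusted p = 1.52e-06, 3.52e-06 and 1.18e-06. ELA3 (LOC4341858) had ratios of 1.09, 1.61 and 1.65 and RFS (LOC4325200) of 1.06, 1.34 and 1.89, and RFS had the widest spread over arrays of the 12 highest (SD 0.42).

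**Figure D2:**
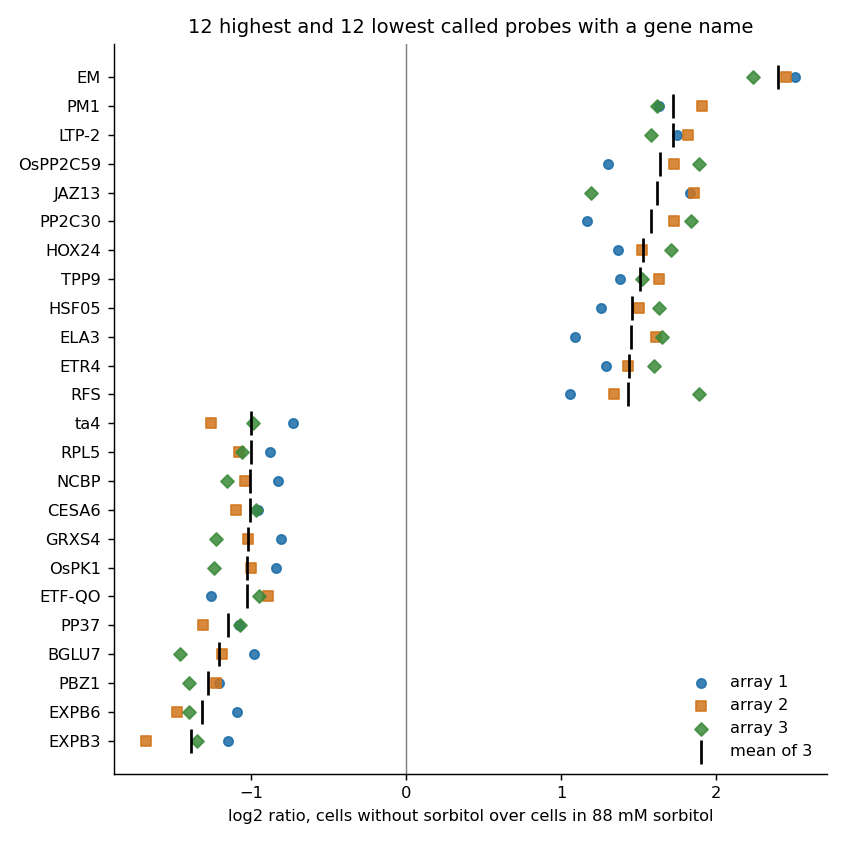
Log2 ratios of cells without sorbitol over cells in sorbitol (x axis) on each of the 3 arrays (coloured symbols) with their mean (black bar), for the 12 highest and 12 lowest called probes with a gene name (rows). EM averaged 2.40 and EXPB3 -1.39, and no gene shown crossed 0 on any array.

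Compatible solutes and aquaporins are the other classical means of coping with water loss. Of 13 compatible solute probes 6 rose (46.2%, against 17.8% of all probes) and 1 fell (7.69%), with a median of 0.19. The strongest was TPP9 (LOC4332996), which encodes a trehalose-6-phosphate phosphatase, the last enzyme of trehalose synthesis. Its ratios of 1.38, 1.63 and 1.52 amount to a 2.85-fold rise (adjusted p = 2.99e-06). OsTPP2, of the same family, gave 0.95, 0.85 and 0.62, and 3 of 5 trehalose phosphatase probes rose (60%) while none fell. Both probes of P5CS2, for the entry enzyme of proline synthesis, rose (0.57 and 0.43), whereas BADH2, for a betaine aldehyde dehydrogenase, fell by 0.38 on the log2 scale.

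The aquaporin list holds water channels of the plasma membrane (PIP) and the vacuole membrane (TIP), and genes of the NIP and SIP groups. Its 29 probes gave 11 rises (37.9%, against 17.8% of all probes) and 2 falls (6.9%), with a median of 0.13. The vacuolar TIP4-1 (LOC4338163) had ratios of 0.79, 0.86 and 1.22 and the plasma membrane PIP1-2 (LOC9270874) of 0.83, 0.95 and 1.09. Both were 1.94-fold higher in cells without sorbitol (adjusted p = 7.73e-05 and 3.75e-05), and these were the only 2 aquaporin probes called at 1.5-fold or more. TIP1-2 averaged -0.46 and PIP2-2 -0.31, the 2 that fell. Families were mixed: 4 of 12 PIP probes rose (33.3%) and 1 fell (8.33%), and 4 of 8 TIP probes rose (50%) and 1 fell (12.5%). PIP1-1 and SIP2-1 each had a probe that rose (0.44 and 0.47) and a probe that was not called (-0.09 and -0.13).

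Jasmonate is a hormone of wounding and defence. Of 36 probes 14 rose (38.9%, against 17.8% of all probes) and 4 fell (11.1%), with a median of 0.13. JAZ and TIFY repressors hold jasmonate responses in check and are themselves made on a jasmonate signal. Of 17 probes for these repressors 9 rose (52.9%) and 1 fell (5.88%). JAZ13 (LOC4348531) had ratios of 1.83, 1.86 and 1.19, a 3.08-fold rise (mean 1.62 ± 0.38, adjusted p = 1.41e-05), and TIFY11A (LOC4331832) of 1.00, 1.12 and 1.46. JAZ11, JAZ10 and JAZ8 rose as well, with means of 1.06, 0.94 and 0.75. JAZ5 averaged -0.28 and fell. Of 16 probes for jasmonate synthesis 5 rose (31.2%) and 2 fell (12.5%), with AOS1 (allene oxide synthase) at 0.54, LOX9 (a lipoxygenase) at 0.53 and OPR10 (of the oxophytodienoate reductase family) at -0.63.

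Of 10 ethylene probes 5 rose (50%, against 17.8% of all probes) and 1 fell (10%), with a median of 0.21. ETR4 (LOC4342865), an ethylene receptor gene, had ratios of 1.29, 1.43 and 1.60, a 2.71-fold rise (adjusted p = 5.14e-06). The other 2 receptor probes that rose, ERS1 and ETR2, were far closer to 0, with means of 0.36 and 0.31, and 3 of 6 receptor probes were not called. ACS2, for the synthase that makes the ethylene precursor, rose with ratios of 0.38, 0.68 and 0.98 (adjusted p = 0.00109), and ACO1, for an oxidase that turns the precursor into ethylene, fell by 0.42.

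Heat shock proteins, the chaperones of unfolded proteins, and the factors that control them gave 12 rises (30.8%) and 3 falls (7.69%) among 39 probes, with a median of 0.10. The factor genes stood first. HSF05 (LOC4328809) had ratios of 1.26, 1.5 and 1.63 and HSF01 (LOC4326351) of 0.81, 1.01 and 1.11, which is 2.76-fold and 1.97-fold higher in cells without sorbitol (adjusted p = 5.99e-06 and 3.86e-05). Among 21 probes for chaperones 5 rose (23.8%, against 17.8% of all probes) and 1 fell (4.76%). The small heat shock gene HSP17.9B was highest at 0.84 and HSP81-3, of the HSP90 class, lowest at -0.48.

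Among other transcription factors, bZIP and MYB probes gave 8 rises and 1 fall of 22 (36.4% rose, against 17.8% of all probes). Of 6 DREB probes 4 rose (66.7%), none of them by 1.5-fold. DREB1A (LOC4347620), known from cold responses, fell, with ratios of -0.68, -0.86 and -0.98 (adjusted p = 9.11e-05). MYB45 (LOC4341803) had 1.25, 1.36 and 1.23, a 2.43-fold rise (adjusted p = 6.01e-06). Of 16 WRKY and NAC probes 6 rose (37.5%) and 1 fell (6.25%), none by 1.5-fold. WRKY9 was called with an average of 0.47 although its ratio on array 3 was -0.03, and it lost the call without 1 of the arrays.

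Genes without a name reached the highest ratios. LOC4333949 had 2.75, 2.96 and 2.80, a 7.14-fold rise (adjusted p = 5.31e-08), the largest of all 21470 probes. LOC4336815 averaged 2.32 ± 0.09, LOC4333479 2.27 ± 0.09 and LOC4344351 2.25 ± 0.15 (SD, n = 3). At the other end LOC4330617 had -1.48, -1.68 and -2.42, a 3.63-fold fall (adjusted p = 1.69e-05), followed by LOC4329812 at -1.58 ± 0.05. The gene table used here gives no role for these loci.

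Among falls of genes with a name, beta-expansins came first. EXPB3 (LOC4349349) and EXPB6 (LOC4349347) encode beta-expansins, proteins that loosen grass cell walls during growth. EXPB3 had ratios of -1.15, -1.68 and -1.35 and EXPB6 of -1.09, -1.48 and -1.40, which is 2.63-fold and 2.50-fold lower in cells without sorbitol (adjusted p = 1.34e-05 and 1.04e-05). Both were least negative on array 1. EXPB18 (-0.99) and EXPB2 (-0.94) fell too, and of 12 beta-expansin probes 6 fell (50%, against 17.8% of all probes) and 1 rose (8.33%). The 16 alpha-expansin probes had no common direction, with 5 rises (31.2%) and 3 falls (18.8%).

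Over the whole list of expansins, XTH and wall synthesis, 21 of 68 probes fell (30.9%, against 17.8% of all probes) and 10 rose (14.7%), with a median of -0.10. Cellulose synthase genes had 5 falls (38.5%) and no rise among 13 probes. CESA6 (LOC4342850) had a probe at -0.96, -1.10 and -0.97 (2.01-fold lower, adjusted p = 2.23e-05), yet 2 other probes of the gene averaged 0.12 and 0.02 and were not called, so its probes disagreed. CESA5 fell by 0.71 and CESA3 by 0.44 on the log2 scale. EXLA1, an expansin-like gene, fell by 0.88, while its relative EXLA2 rose by 0.86.

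Of 61 auxin probes 16 fell (26.2%, against 17.8% of all probes) and 4 rose (6.56%), with a median of -0.07. The auxin response factors, which bind the promoters of auxin-regulated genes, had 7 falls (38.9%) and no rise among 18 probes. GH3-8 (LOC4343785), whose enzyme couples auxin to amino acids, had -0.80, -0.99 and -0.68, a 1.77-fold fall (adjusted p = 0.000107). IAA26 (LOC4347643), an auxin response repressor gene, had -0.61, -0.83 and -0.70 (adjusted p = 0.000193), and the efflux carrier gene PIN3A averaged -0.69. Of 22 gibberellin and brassinosteroid probes 3 fell (13.6%) and none rose. OsKO1 (LOC4341347), an ent-kaurene oxidase gene of gibberellin synthesis, fell on 1 probe (-0.91 ± 0.42) and averaged -0.04 on the other.

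Of 71 probes for cyclins, their kinases and DNA replication, 15 fell (21.1%, near the 17.8% of all probes) and 6 rose (8.45%), with a median of -0.09. CYCD4-2, a D-type cyclin gene, had ratios of -0.68, -0.73 and -0.68 (1.62-fold lower, adjusted p = 0.000168), whereas CYCD4-1 averaged 0.41 and rose. The replication clamp gene PCNA averaged -0.01 and was not called. Kinesins, tubulins and actins showed 5 rises (13.9%) and 3 falls (8.33%) among 36 probes, none of them at 1.5-fold.

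Genes of defence and glycoside breakdown were also among the lowest. PBZ1 (LOC4352491), a pathogenesis-related gene first known from its response to probenazole, had ratios of -1.21, -1.23 and -1.40, a 2.43-fold fall (adjusted p = 6.64e-06). BGLU7 (LOC4333841), a beta-glucosidase gene, had -0.98, -1.19 and -1.46, a 2.31-fold fall (adjusted p = 2.32e-05). Of 11 chitinase probes 4 fell (36.4%, against 17.8% of all probes) and 2 rose (18.2%), from Cht1 at -0.71 to Cht-2 at 0.99. The 2 largest members of this family by size of change thus had opposite signs.

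Of 15 glycolysis and fermentation probes 8 fell (53.3%, against 17.8% of all probes) and none rose, with a median of -0.28, the lowest of the 33 lists. The enolase gene Eno1 (LOC4348176) had -0.74, -0.82 and -1.07 and GAPC2 (LOC4336216), for a cytosolic glyceraldehyde-3-phosphate dehydrogenase, -0.57, -1.14 and -0.64. They were 1.84-fold and 1.72-fold lower (adjusted p = 7.95e-05 and 0.000538), and these 2 were the only falls of 1.5-fold or more in the list. Of 20 ribosomal protein probes 8 fell (40%) and 1 rose (rpl5, 0.43). RPL5 (LOC4325100) had -0.88, -1.08 and -1.06, a 2.01-fold fall (adjusted p = 2.79e-05). RPL27 fell on 1 probe (-0.84) and averaged -0.10 on the other.

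The electron transfer flavoprotein links the breakdown of branched-chain amino acids to respiration. ETF-QO (LOC4349116), for the enzyme that hands those electrons to ubiquinone, had ratios of -1.26, -0.89 and -0.95, a 2.05-fold fall (adjusted p = 3.92e-05). ETFB, for a flavoprotein subunit, fell with it (-0.51, -0.49 and -0.63), while ETFA, for the other subunit, rose on 1 probe by 0.24 and averaged -0.08 on the other. The leucine breakdown genes IVD (-0.18) and MCCA (-0.13 and -0.15) were not called.

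Other genes among the 12 lowest were GRXS4 (LOC4327794), a glutaredoxin gene with a mean of -1.02 on 1 probe and 0.10 on another, and NCBP (LOC4332327), a cap-binding protein gene, at -1.01. PP37 (LOC4348905) averaged -1.15, OsPK1 (LOC4349774) -1.03 and ta4 (LOC4329846) -1.0. Each was about 2-fold lower in cells without sorbitol on the probe named.

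**Figure D3:**
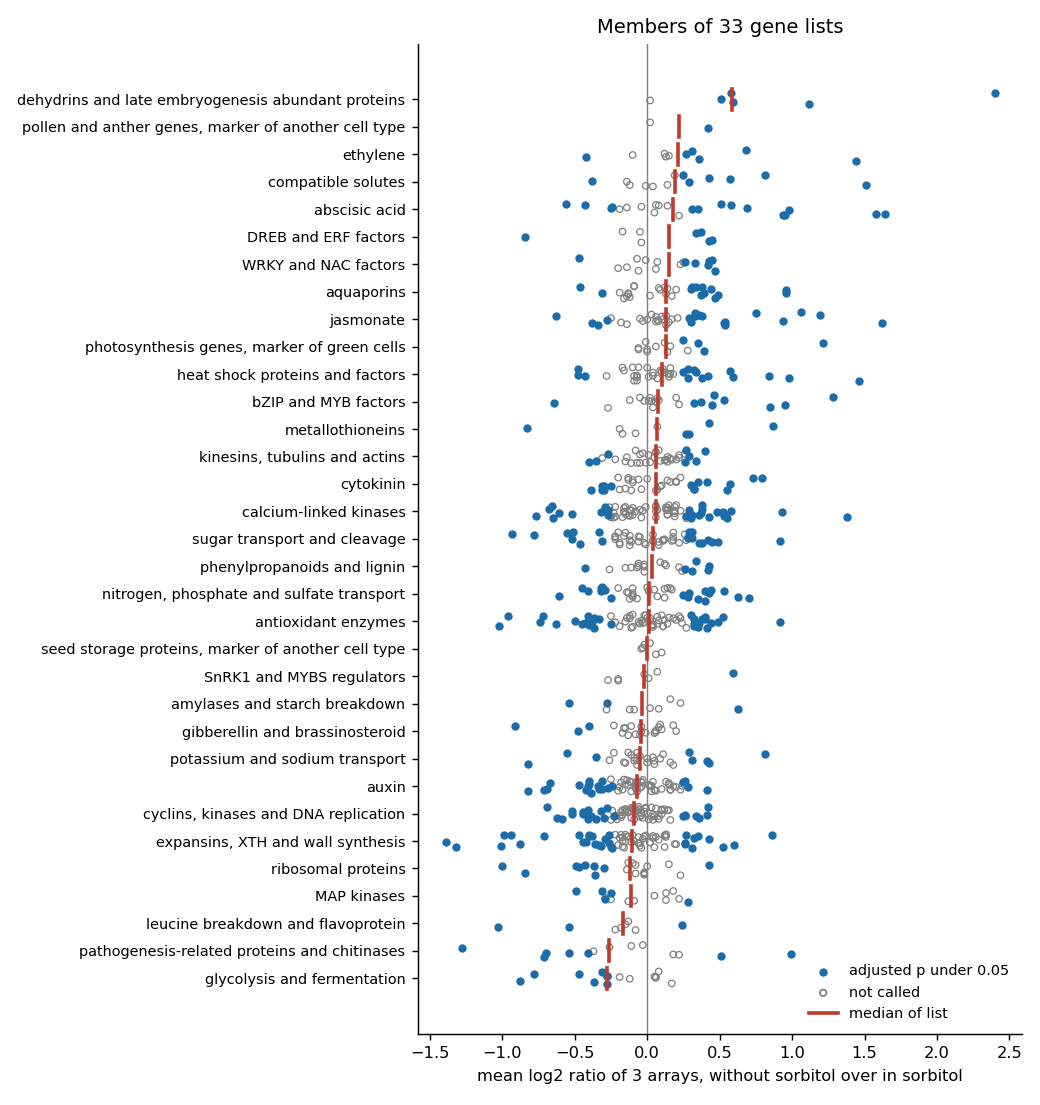
Mean log2 ratio of the 3 arrays (x axis) for every tested probe of 33 gene lists (rows, ordered by median). Filled points passed an adjusted p of 0.05, open points did not, and red bars mark list medians, which ran from 0.59 for dehydrins to -0.28 for glycolysis and fermentation.

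On these arrays both cell populations lacked sucrose. Alpha-amylases break down starch, and RAmy3D and RAmy3E are known from sugar-starved rice cells. RAmy3D (LOC4345814) was not called on either probe, with -0.02, -0.19 and -0.06 on one and 0.13, 0.29 and 0.06 on the other. RAmy3E (LOC4345812) averaged -0.28 on each of its 2 probes, 1 of which was called (adjusted p = 0.0463) and 1 not (adjusted p = 0.0591). RAmy3A (LOC4347262) had 0.42, 0.56 and 0.90, a 1.54-fold rise (adjusted p = 0.00109). Of the list of 10 amylase and starch breakdown probes, 1 rose (10%) and 2 fell (20%), against 17.8% of all probes each way.

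Sugar transport and cleavage genes had 12 rises (23.1%) and 8 falls (15.4%) among 52 probes, near the 17.8% each way of all probes, and a median of 0.04. The sugar exporter gene SWEET1B (LOC4338851) had ratios of -0.62, -0.95 and -0.76, a 1.71-fold fall (adjusted p = 0.000161). The fructokinase gene FKI (LOC4324962) had -0.96, -1.13 and -0.69, a 1.90-fold fall, and the cell wall invertase gene CIN4 (LOC4324001) 0.54, 1.32 and 0.89, a 1.89-fold rise. SUS1, the sucrose synthase gene, averaged -0.15 ± 0.10 and the hexokinase gene HXK7 0.18 ± 0.16 (SD, n = 3), and neither was called. The monosaccharide transporter gene MST3 averaged 0.28 ± 0.17 (adjusted p = 0.0365) and kept that call in only 1 of the 3 fits without an array.

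The arrays against sucrose at 12 h had starved cells of the same labelled treatment and another control medium. The 2 sets share no array, so a difference between control media cannot be told apart from one between the sets of arrays or cultures. Across probes, sucrose replicates 1 and 2 correlated with the sorbitol arrays at 0.149 to 0.288. Sucrose replicate 3 did so at -0.136 to -0.0812, so the sucrose arrays differed in their correlation with the sorbitol arrays. The difference between the 2 sets was tested in a fit of the 6 arrays that took 1 spread per probe for both sets. The median SD of a probe was 0.13 in the sorbitol set and 0.44 in the sucrose set, so adjusted p-values of the difference rest on a spread shared by unlike sets. Of 20078 probes 893 passed (4.45%), 311 with a higher ratio against sorbitol (1.55%) and 582 with a lower one (2.90%). This count depended on single arrays: it was 36, 29 and 1 without sorbitol replicate 1, 2 or 3, and 815, 1828 and 3116 without sucrose replicate 1, 2 or 3. Groups of 3 that did not overlap made up 30.1% of probes. With array weights by group the count was 1301. The differences below are described with those limits.

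The largest difference among the named probes was that of the unnamed gene LOC4329812 (-5.00, adjusted p = 0.00782). SWEET1B averaged -0.78 ± 0.16 against sorbitol and 3.95 ± 0.72 against sucrose, a difference of -4.72 (adjusted p = 0.00309). For RAmy3E the means were -0.28 ± 0.22 against sorbitol and 3.02 ± 1.11 against sucrose on 1 probe (adjusted p = 0.0147), and PPDKB, for a pyruvate, phosphate dikinase, had -0.19 ± 0.13 and 3.80 ± 0.88 in the same order (adjusted p = 0.00483). GDH2, a glutamate dehydrogenase gene, averaged 0.53 ± 0.18 against sorbitol and 3.83 ± 0.85 against sucrose on its higher probe (adjusted p of the difference = 0.00782). In the other direction the nitrate reductase gene NIA1 averaged 0.14 ± 0.06 against sorbitol and -3.23 ± 0.58 against sucrose (adjusted p = 0.0038) on 1 probe. The other NIA1 probe averaged -0.20 against sorbitol and had a value of 0.17 on a single sucrose array, where the first probe had -3.36. PDC1, for pyruvate decarboxylase, had -0.28 ± 0.06 against sorbitol and -2.66 ± 0.92 against sucrose. On the probes given with means of 3, the 3 arrays against sorbitol lay closer to 0 than any of the 3 against sucrose.

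Water-deficit genes did not share 1 pattern across the 2 sets. EM was high in both sets, with ratios of 2.51, 2.45 and 2.24 against sorbitol and 3.05, 0.64 and 2.91 against sucrose, and the difference did not pass (0.19, adjusted p = 0.884). RAB16B was lower against sorbitol than against sucrose, where it had 2.48, 2.82 and 3.47 (difference -1.81, adjusted p = 0.0190). The vacuolar aquaporin gene TIP3-1 likewise averaged 0.34 ± 0.14 against sorbitol and 2.77 ± 0.43 against sucrose (adjusted p = 0.00606). Over the dehydrin list the median was 0.59 against sorbitol and 1.57 against sucrose.

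Some genes had opposite signs. ETR4 had 1.29, 1.43 and 1.60 against sorbitol and -0.24, -0.44 and -0.89 against sucrose (difference 1.96, adjusted p = 0.00819). ABA8OX1 averaged 0.98 ± 0.12 against sorbitol and -1.49 ± 0.81 against sucrose (difference 2.46, adjusted p = 0.0154). HSF01 and TIP4-1 averaged 0.98 and 0.96 against sorbitol and -0.25 and -0.29 against sucrose (adjusted p = 0.0190 and 0.0323). ETF-QO showed the reverse, at -1.03 ± 0.20 against sorbitol and 1.60 ± 0.37 against sucrose (difference -2.63, adjusted p = 0.00421), as did BGLU7, at -1.21 ± 0.24 and 1.10 ± 0.61 in that order (adjusted p = 0.0121). Of the 515 probes called both against sorbitol and in the difference, 116 were higher against sorbitol with a mean below 0 against sucrose. Another 291 were lower with a mean above 0. A pick by a called difference favours probes of opposite sign, so these counts do not measure how common opposite signs are.

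**Figure D4:**
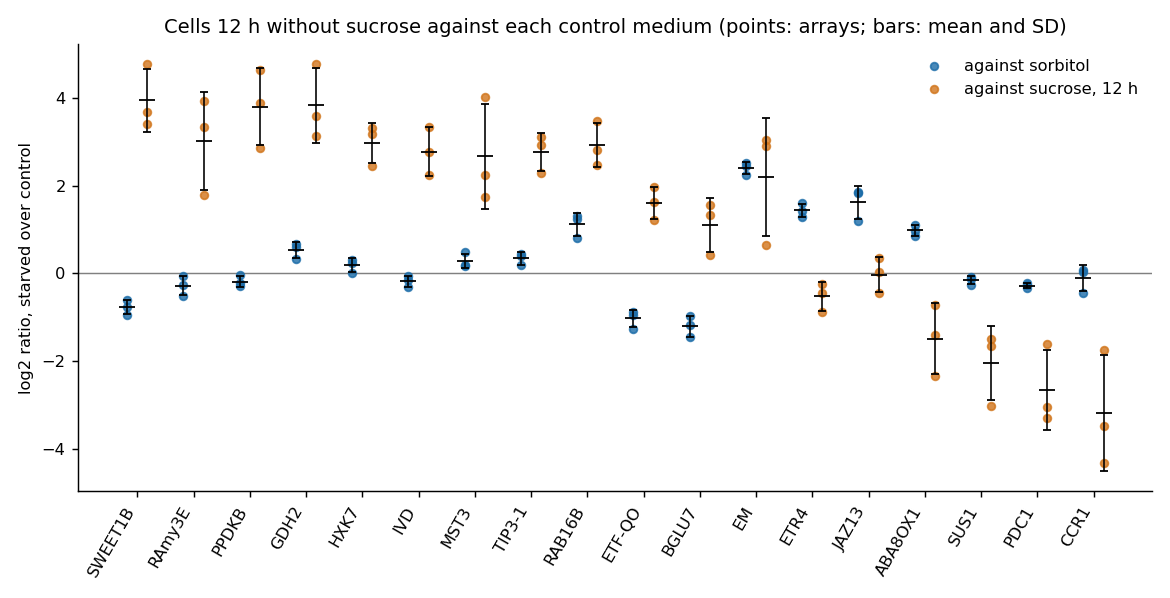
Log2 ratios (y axis) of 18 genes in cells starved for 12 h over control cells in sorbitol (blue) or in sucrose (orange). Points are arrays and black marks give the mean and SD of 3. SWEET1B averaged -0.78 against sorbitol and 3.95 against sucrose, and EM 2.40 and 2.20.

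Markers of other cell types gave mixed results. None of 6 seed storage protein probes was called, and their means ran from -0.04 to 0.10. Of 2 pollen and anther probes, C6 averaged 0.42 and rose and RTS averaged 0.02. The ratios of C6 were uneven (0.38, 0.06 and 0.83), and it kept its call in only 2 of the 3 fits without an array. Of 14 photosynthesis probes, which mark green cells, 4 rose (28.6%, against 17.8% of all probes) and none fell, with means from -0.06 to 1.21. PSAH (LOC4339593), for a subunit of photosystem I, had 1.02, 1.27 and 1.35, a 2.31-fold rise (adjusted p = 1.41e-05), while the light-harvesting gene CAB1R averaged 0.25. Whether green or anther-like cells had a part in the rises was not tested.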

How the data were processed

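The values were the authors' deposited table of processed array values, 21495 probes by 12 columns, 1 per array. They were taken as natural log ratios of Cy5 over Cy3 from the values and, per the labels, the dyes, and were turned to log2. Background correction, normalization and software are not given in the sources used here, and scanner signals were not used, so signal over background is unknown. All 12 columns matched a sample title, and 0 columns were left aside.

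Probes with 3 values were tested against 0 with limma 3.58.1 (lmFit and eBayes, R 4.3.3) on the 3 arrays alone, and the difference from the 12 h sucrose arrays on 6 arrays, both two-sided with Benjamini-Hochberg adjustment over all probes and a threshold of 0.05. Tested on simulated data for 21470 probes, the first fit recovered 76 of 100 shifts of 0.5 and 100 of 100 shifts of 1, with 5 false calls. The shifted probes were far fewer than the 7630 called in the data, so recovery in the data may differ. For the difference over 20078 probes, 4 of 100 shifts of 1 and 71 of 100 shifts of 2 were recovered, with 2 false calls. That simulation gave a probe the same SD on all 6 arrays, whereas the median SDs of the real sets were 0.13 and 0.44. Its recovery may therefore differ from that of the real fit.

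Names came from GEO's platform annotation and a RefSeq gene table (ASM3414082v1): 17839 probes had 1 gene, 21 several and 3635 none, and 2107 genes had a name. The 33 lists match gene symbols; members and lists were chosen with earlier results of these data known, and their patterns were trimmed after the gene names were seen. Family counts within lists were added later. Genes were named by a rule: the 12 highest and 12 lowest called named probes of 1 sign on all arrays, the 2 largest members of each list, a panel of 18 genes (RAB16A and P5CS1 had no tested probe, and HXK6 is a synonym of 2 genes), the 4 highest and 4 lowest unnamed genes, and the 8 highest and 8 lowest differences. Other genes given as list members were picked after their values were seen. Alternatives were gene averages, all 12 arrays, centring, scaling to the same median absolute log ratio, quantile normalization, array weights, robust moderation, 2 of 3 values and leaving out arrays. Python 3.11.15 wrote the tables (pandas 2.3.3, numpy 2.4.6) and drew the figures (matplotlib 3.10.9).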

Additional observations from a re-analysis of the deposited data

Results flagged for a closer look

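Of 112 probes named by the rule, 38 had a ratio against sorbitol that differed from the ratio against sucrose at 12 h, past an adjusted p of 0.05 in the limma fit of 6 arrays (4.45% of all probes did). The rule picked 8 of the highest and 8 of the lowest for their difference, so the 38 are no measure of how common such differences are. Without sorbitol replicate 1, 2 or 3 the call was kept by 8, 8 and 0 of the 38, and without sucrose replicate 1, 2 or 3 by 31, 36 and 38. Differences are log2, set against sorbitol minus set against sucrose.

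Higher than against sucrose, and called as rises against sorbitol, were ABA8OX1 (2.46), the sucrose transporter gene OsSUT2 (2.14), ETR4 (1.96), LOC4333949 (1.86), JAZ13 (1.65), TIP4-1 (1.25) and HSF01 (1.23). PDC1 (2.38) was higher than against sucrose though called as a fall against sorbitol. Also higher, but not called against sorbitol, were the nitrate reductase gene NIA1 (3.37), the lignin gene CCR1 (3.07), the kinase gene CIPK16 (2.88), the tubulin gene TUBB1 (2.37), STLP3 (2.28) and SUS1 (1.89). Of these, TUBB1 has another probe with a difference of 0.69 that did not pass. NIA1 has another probe that averaged -0.20 against sorbitol and had a value on only 1 sucrose array, 0.17, so no difference was tested there.

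Lower against sorbitol, and called as falls there, were TPKA, a potassium channel gene (-1.14), the kinase gene MPK10 (-1.31), the metallothionein gene MT4A (-1.39), ETFB (-1.75), ta4 (-2.20), BGLU7 (-2.31), ETF-QO (-2.63), LOC4330617 (-2.76), LOC4344616 (-3.16), 1 probe of RAmy3E (-3.30), the iron transporter gene VIT1.2 (-3.31), SWEET1B (-4.72) and LOC4329812 (-5.00). Lower than against sucrose, though called as rises against sorbitol, were GDH2 (-1.05 and -3.29 on its 2 probes), RAB16B (-1.81), MST3 (-2.39) and TIP3-1 (-2.43). Not called against sorbitol were HXK7 (-2.80), IVD (-2.96), WRKY62 (-3.12), the other probe of RAmy3E (-3.12), PPDKB (-3.99) and 1 probe of RAmy3D (-4.13), whose other probe differed by -0.48 and did not pass.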

How the results depend on the processing

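The count of 7630 probes called against sorbitol lay between 6979 and 8826 with probes averaged by gene, with centred, scaled or quantile normalized arrays, array weights, robust moderation, 2 of 3 values, or probes with repeated values left out, the last chosen after seeing the data. It was 9 when the 12 arrays shared a spread, and 4588 to 8107 without 1 array. None of the 93 called named probes changed sign under any of these settings, and 90 lost the call under the shared spread. Leaving out 1 array ended 4, 6 and 3 of those calls. For the difference between the 2 sets, 893 calls became 321 with all 12 arrays, 1301 with array weights by group and 2316 with scaled arrays. The count ran from 1 to 3116 without 1 array. The cause was not tested. Deviations of same-numbered arrays of the 2 sets correlated at -0.0541, -0.00603 and 0.021, and those of unlike-numbered arrays at -0.137 to 0.166. Such values cannot show whether arrays of 1 number shared a culture, and the labels do not say. The replicate block gave 913 calls. Read as log2 or log10 values, the table would hold 33 or 2847 probes at least 2-fold from 1 in place of 169. Signal over background was unknown, so low signal could not be told from small change.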

Other observations

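Calcium signalling genes had 17 rises (23.9%) and 10 falls (14.1%) among 71 probes against sorbitol, near the 17.8% of all probes each way. Of 21 probes for calmodulin-like proteins, which bind calcium, 8 rose (38.1%) and 2 fell (9.52%). CML31 (LOC4325408) had log2 ratios of 1.40, 1.34 and 1.39 on the 3 arrays, a 2.60-fold rise with the narrowest spread of the genes near it (SD 0.03, adjusted p = 3.52e-06), and 1.21, 1.19 and 1.56 against sucrose, a difference that did not pass (adjusted p = 0.91). Its relative CML15 averaged -0.77 against sorbitol. CIPK kinases, which act with calcium sensors, had 8 rises (29.6%) and 4 falls (14.8%) among 27 probes, and probes of CIPK2 averaged 0.27, -0.61 and -0.68, so they disagreed.

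Antioxidant genes had 14 rises (20.6%) and 16 falls (23.5%) among 68 probes, with a median of 0.01. Of all probes, 17.8% rose and 17.8% fell. Glutaredoxins, small enzymes that reduce disulfides, had 9 rises (45%) and 2 falls (10%) among 20 probes, and thioredoxins 2 rises (11.8%) and 5 falls (29.4%) among 17. The ascorbate peroxidase gene APX7 fell on both probes (-0.96 and -0.37). Among metallothioneins, which bind metal ions, MT1B rose by 0.87 and MT4A fell by 0.83. Potassium transporters of the HAK family had 4 rises (16.7%, about the share of all probes) and 2 falls (8.33%) among 24 probes, with the high-affinity gene HAK1 highest at 0.81, and the potassium channel gene TPKA averaged -0.82. The ammonium transporter gene AMT3-2 averaged 0.70 and the nitrate transporter gene NRT2.3 0.63, while 2 glutamine synthetase genes, GLN1-1 and GLN1-3, averaged -0.31 and -0.32.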
